A study of Caenorhabditis elegans with 10 samples.

Results

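The enzymes described here are those of the methionine cycle and of transsulfuration in Caenorhabditis elegans. The members were chosen by gene symbol: sams-1, sams-3, sams-4, sams-5, ahcy-1, metr-1, mtrr-1, cbs-1, cth-1 and cth-2. All 10 were measured and passed the filter on low values, out of 12642 genes tested. The study measured whole, predominantly young adult worms with mutations of the mitochondrial electron transport chain on 10 Affymetrix whole-genome arrays, and its stated purpose was to find metabolic pathways downstream of these mutations.

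In the methionine cycle, S-adenosylmethionine synthetases turn methionine into S-adenosylmethionine, the methyl donor of most methylation reactions. After the methyl group is given away, adenosylhomocysteinase releases homocysteine, and methionine synthase, a vitamin B12-dependent enzyme, remethylates it with a folate-borne methyl group. Transsulfuration instead passes homocysteine through cystathionine to cysteine, which feeds glutathione and sulfide. In worms sams-1 is known as the synthetase that supports phosphatidylcholine synthesis by methylation.

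There were 5 RNAi arrays. Each held N2 animals fed bacteria expressing RNAi against 1 complex I subunit, first on plates for 2 generations and afterwards in liquid with 5 mM IPTG. By label the targets were F22D6.4 (nduf-6), Y45G12B.1 (nuo-5), C34B2.8 (ndua-13), Y56A3A.19 (ndab-1) and D2030.4 (ndub-7). The label names the wild-type N2 array grown on HT115 as their control, and it mentions neither IPTG nor an empty vector. The 3 missense arrays were gas-1(fc21) of complex I, mev-1(kn1) of complex II and isp-1(qm150) of complex III, grown on OP50 plates and then in K12 liquid culture. Their labelled control was the N2 wild type grown in the same way (1 array). The label of the isp-1 array gives the locus T07C4.7, which belongs to mev-1 (isp-1 is F42G8.12). RNA of 3 biological replicates was combined for an array, so every condition, wild types included, was measured once.

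Values are log2 expression, quantile normalised over the 10 arrays, and all differences are on that log2 scale. The deposited array medians lay between 5.88 and 6.01. The targeted gene stood at 51.9% of its HT115 wild-type level in the array labelled nuo-5 RNAi, at 70.5% in that labelled ndua-13 RNAi and at 83.9% in that labelled nduf-6 RNAi. It stood at 88.8% in the array labelled ndub-7 RNAi, which ranked 8 of 10 from the lowest for its own target, so a knockdown is not evident there. For the array labelled ndab-1 RNAi the target stood at 211%, against its label, so RNAi arrays are named by their labels throughout. A point mutation need not change its own mRNA, so the missense mutants have no such check. Stage and tissue markers varied between arrays. The summed linear level of 11 sperm genes was 244 to 3112 in the RNAi arrays and 712 in the HT115 wild type, and 825 to 2220 in the missense arrays and 1212 in the K12 wild type. In whole worms, fewer cells of a type and less RNA per cell cannot be told apart.

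In the RNAi arrays, 9 of the 10 members averaged above the HT115 wild type, against 50.1% of all genes tested, and the median difference over the members was 0.41, against 0.00072 over all genes. None of the 10 passed limma's test after Benjamini-Hochberg adjustment over all genes at 0.05, where 0.396% of genes passed. At an unadjusted p of 0.05, 3 of 10 members were higher, sams-1, sams-4 and ahcy-1, against 2.55% of all genes, and 0 were lower, against 5.65%. Over 16 alternative settings sams-1 and ahcy-1 stayed under this threshold in 16 and sams-4 in 13. All 5 RNAi arrays stood above the HT115 wild type for 6 members (sams-1, sams-3, sams-4, ahcy-1, metr-1 and cbs-1), a pattern found in 15.2% of genes. Without the array labelled ndab-1 RNAi the member median was 0.40 and again 0 of 10 members passed, with sams-1 at 1.54, sams-4 at 0.38, ahcy-1 at 0.56 and metr-1 at 0.65. In the missense mutants 2 of the 10 averaged above the K12 wild type, against 51.6% of genes, with a median of -0.22 over the members (-0.14 without gas-1) and 0.0089 over all genes. None of the 10 passed there either, adjusted or at an unadjusted p of 0.05, where 0.0316% and 3.03% of all genes passed. All 3 missense arrays stood below the K12 wild type for 4 members (sams-4, metr-1, cbs-1 and cth-2), against 25.6% of genes. In a second probe set of sams-4, gas-1 stood above it.

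Array by array, the members at least 1.5-fold above their wild type were counted without a test. In the RNAi arrays there were 4 for nduf-6 (sams-1, ahcy-1, metr-1 and mtrr-1), 2 for nuo-5 (sams-1 and cth-1), 1 for ndua-13 (sams-1), 3 for ndab-1 (sams-1, cbs-1 and cth-1) and 6 for ndub-7 (sams-1, sams-3, sams-5, ahcy-1, metr-1 and cth-1). The same size was reached by 8.59%, 9.91%, 11.4%, 11.8% and 19.2% of all genes in these arrays. At least 1.5-fold lower were sams-5 in nduf-6 RNAi and 0 members in the other 4, against 10.5%, 10.3%, 12.7%, 12.9% and 22.2% of genes. In gas-1 cth-1 was higher (7.82% of genes) and sams-5, metr-1 and cbs-1 lower (9.48%). In mev-1 sams-5 was higher (8.99%) and sams-1 and cth-1 lower (8.73%), and in isp-1 0 were higher (6.45%) and sams-5 was lower (7.28%). Only sams-1 reached this size in all 5 RNAi arrays.

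The 5 RNAi differences share a single HT115 array, and that array was itself low for some of these genes. The wild type on K12 stood above the wild type on HT115 for 8 of the 10 members, against 46.4% of all genes, with a median difference of 0.35, and at least 1.5-fold above it for 3 (sams-1, sams-5 and cbs-1), against 10.3%. Of the 10 members, sams-1, sams-4, ahcy-1 and cbs-1 were lowest of all 10 arrays in the HT115 wild type, which holds for 10.5% of all genes. The second probe set of sams-4 was lowest in mev-1. For cth-2 the HT115 wild type was the highest of the 10 arrays. Culture, RNAi feeding and the single control array cannot be told apart in the values set against it.

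**Figure D1:**
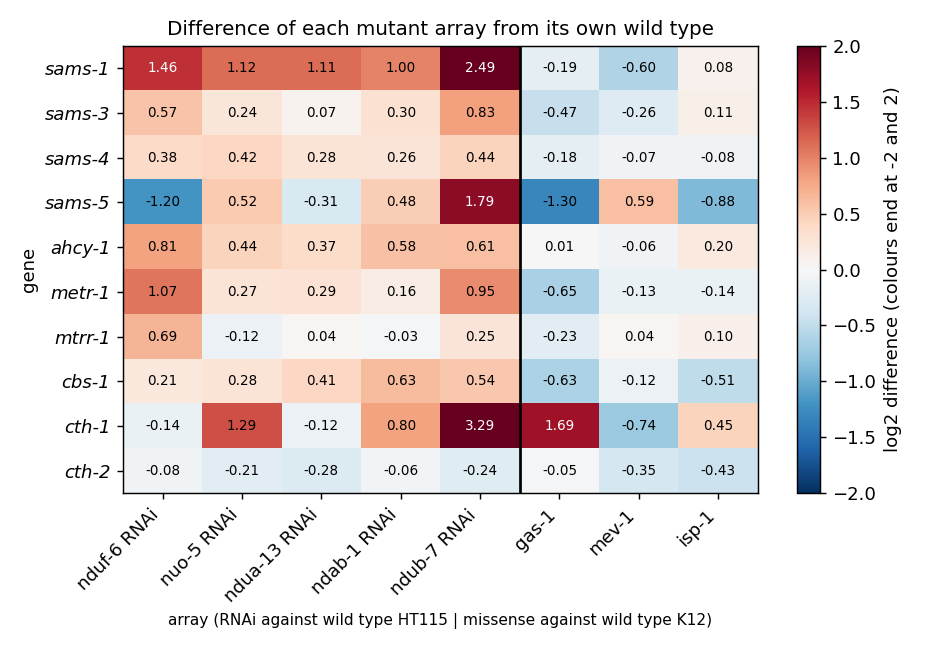
Log2 difference of each mutant array from its own labelled wild type (colour and printed value) for the 10 genes in rows; the 5 RNAi arrays are left of the black line and the 3 missense arrays right of it. sams-1 is above 0 in 5 of 5 RNAi arrays (1.00 to 2.49), and cth-2 is below 0 in 8 of 8 arrays.

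The synthetase gene sams-1 (C49F5.1) had the largest mean RNAi difference of the 10 members. In the RNAi arrays, taken here and for the genes that follow in the order in which the targets are named above, it stood at 11.95, 11.62, 11.61, 11.49 and 12.98, against 10.49 in the HT115 wild type. By the sams-1 probe set with the highest mean, all 5 RNAi arrays lay above both wild types. The nearest was ndab-1 RNAi, only just above the 11.47 of the K12 wild type. The RNAi mean was 11.93 ± 0.61 (SD, n = 5) and the difference from the HT115 wild type was 1.44 (SE 0.52, 2.70-fold, limma adjusted p = 0.484). The 95% interval ran from 0.25 to 2.62.

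Among the missense mutants gas-1 had a sams-1 level of 11.29, mev-1 one of 10.87 and isp-1 one of 11.56, against 11.47 in the K12 wild type. The K12 value lay within the range of the mutants, and the mean difference was -0.24 (SE 0.54, limma adjusted p = 1.00). Another pair of probe sets for sams-1 gave RNAi differences of 1.52 and 1.36, and missense differences of -0.083 and -0.40. In the probe set at -0.40, gas-1, mev-1 and isp-1 all lay below the K12 wild type (9.60, 9.12 and 9.51, against 9.81). Over the 10 arrays both of the pair followed the first probe set with Pearson r of 0.96 and 0.98. In both, every RNAi array again lay above the HT115 wild type, but not every one above the K12 wild type. In the probe set at 1.52, nuo-5 RNAi stood at 10.40, against 10.51 in the K12 wild type. In that at 1.36, nuo-5, ndua-13 and ndab-1 RNAi stood at 9.65, 9.63 and 9.75, against 9.81.

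The other synthetase genes had smaller or less even differences. sams-3 (C06E7.1) has no probe set of its own here. It is represented by a probe set that also lists sams-2, a gene that RefSeq annotates as a pseudogene, so the value is a shared one. It stood at 10.10, 9.78, 9.61, 9.83 and 10.36 in the RNAi arrays, against 9.53 in the HT115 wild type, and at 9.41, 9.61 and 9.98 in gas-1, mev-1 and isp-1, against 9.87 in the K12 wild type. All 5 RNAi arrays lay above their wild type, while the K12 wild type lay within the missense range. The RNAi difference was 0.40 (SE 0.30) and the missense difference -0.21 (SE 0.32).

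sams-4 (C06E7.3), the gene next to sams-3 in the RefSeq order, was the steadiest member across the RNAi arrays. It had 10.33, 10.37, 10.23, 10.21 and 10.39 in them, against 9.95 in the HT115 wild type, a difference of 0.36 (SE 0.13, limma adjusted p = 0.498, 95% interval 0.055 to 0.66). In gas-1, mev-1 and isp-1 it had 10.12, 10.23 and 10.23, against 10.30 in the K12 wild type. Every RNAi array was above its own control and every missense array below its own, as for metr-1 and cbs-1 (3 of 10 members, 2.96% of all genes), but 3 of 5 RNAi arrays reached the level of the K12 wild type. A second probe set of sams-4 gave 0.32 in the RNAi arrays and -0.064 in the missense arrays, and followed the first with r = 0.46. In the second, every RNAi array was again above its control, but gas-1 stood at 10.28, above the 10.12 of the K12 wild type. The opposed pattern thus did not hold there.

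sams-5 (T13A10.11) varied most among the synthetase genes. It stood at 5.92, 7.64, 6.82, 7.61 and 8.92 in the RNAi arrays, against 7.13 in the HT115 wild type, and at 6.76, 8.65 and 7.18 in gas-1, mev-1 and isp-1, against 8.06 in the K12 wild type. Both wild types lay inside the range of their mutants. Its RNAi SD of 1.11 was above that of 96.3% of genes. The low value came from the array labelled nduf-6 RNAi, where the median of 11 sperm genes stood at -1.71 (3 of 11 above the wild type), and the high value from that labelled ndub-7 RNAi, where it stood at 2.25 (10 of 11 above). In mev-1 and isp-1 these sperm medians were 0.70 (10 of 11 above) and -0.52 (2 of 11), while sams-5 differed by 0.59 and -0.88. In gas-1, by contrast, sams-5 stood at -1.30 with a sperm median of 0.070 (8 of 11). Of all 12642 genes tested, 6944 stood above their wild type in nduf-6 RNAi and 5311 in ndub-7 RNAi. In mev-1, isp-1 and gas-1 these counts were 5862, 6944 and 6248. The part of sperm content in the sams-5 values was not tested.

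The adenosylhomocysteinase gene ahcy-1 (K02F2.2), whose product clears the S-adenosylhomocysteine that methylation leaves behind, separated the RNAi arrays from all other arrays. It had 14.19, 13.83, 13.75, 13.97 and 13.99 in the RNAi arrays, against 13.39 in the HT115 wild type. In gas-1, mev-1 and isp-1 it had 13.50, 13.42 and 13.68, against 13.48 in the K12 wild type. The lowest RNAi array lay above the highest of the other 5 arrays, isp-1. Besides sams-1 it was the only one of the 10 members for which all 5 RNAi arrays exceeded both wild types, which holds for 4.15% of all genes. For sams-1 the pattern did not hold in its other probe sets. The RNAi difference was 0.56 (SE 0.18, 1.48-fold, limma adjusted p = 0.399), with a 95% interval of 0.15 to 0.97. The missense difference was 0.050 (SE 0.19). The K12 wild type stood only 0.096 above the HT115 wild type for this gene.

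**Figure D2:**
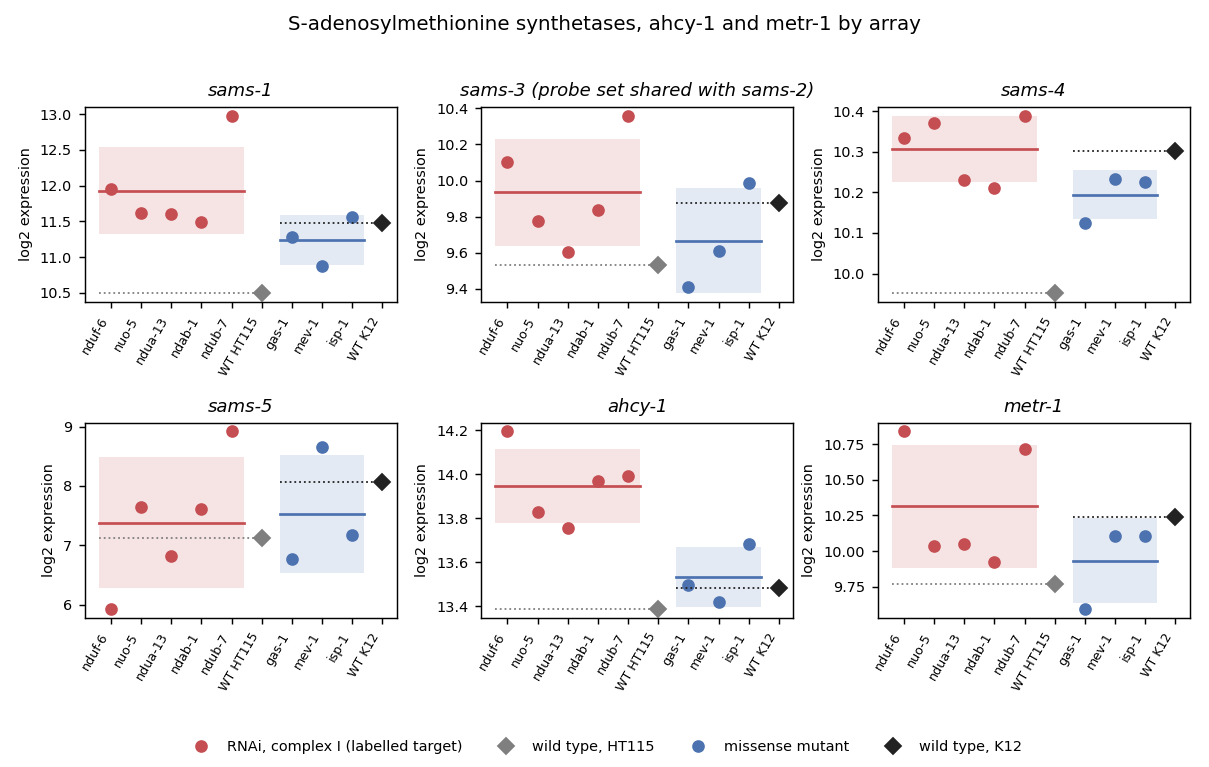
Log2 expression by array for the 4 S-adenosylmethionine synthetase measurements, ahcy-1 and metr-1: RNAi arrays (red) left of the HT115 wild type (grey diamond), missense arrays (blue) left of the K12 wild type (black diamond). Lines and shading are the group mean ± SD (n = 5 and n = 3), dotted lines carry each wild type's level across its mutants, and each panel has its own scale. For ahcy-1 the RNAi arrays start at 13.75, above the 13.68 of isp-1.

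The remethylation genes stood highest in the array labelled nduf-6 RNAi. Methionine synthase, metr-1 (R03D7.1), had 10.84, 10.04, 10.05, 9.92 and 10.72 in the RNAi arrays, against 9.77 in the HT115 wild type, and 9.59, 10.11 and 10.10 in gas-1, mev-1 and isp-1, against 10.24 in the K12 wild type. Every RNAi array was above its control and every missense array below its own. Among the RNAi arrays nduf-6 and ndub-7 RNAi formed a high pair, 1.07 and 0.95 above the control, and the other 3 lay 0.16 to 0.29 above it. The mean RNAi difference was 0.55 (SE 0.38, limma adjusted p = 0.842) and the mean missense difference -0.31 (SE 0.40, adjusted p = 1.00).

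Methionine synthase reductase, mtrr-1 (C01G6.6), which in mammals keeps the B12 cofactor of methionine synthase active, had 9.70, 8.89, 9.05, 8.98 and 9.26 in the RNAi arrays, against 9.01 in the HT115 wild type. It had 8.98, 9.25 and 9.31 in gas-1, mev-1 and isp-1, against 9.21 in the K12 wild type. Both wild types lay within the range of their mutants, and the differences were 0.17 (SE 0.29, and 0.037 without nduf-6 RNAi) and -0.031 (SE 0.31, and 0.068 without gas-1). In nduf-6 RNAi, the highest of the 10 arrays for both metr-1 and mtrr-1, all 15 germline and oocyte genes stood above the HT115 wild type, with a median of 0.36. In ndub-7 RNAi, the second highest for metr-1, 1 of those 15 did, with a median of -0.80. Of all 12642 genes tested, 6944 stood above the HT115 wild type in nduf-6 RNAi and 5311 in ndub-7 RNAi. The part of germline content was not tested.

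The transsulfuration genes differed among themselves in direction. Cystathionine beta-synthase, cbs-1 (ZC373.1), joins homocysteine to serine and opens the pathway. It stood at 7.56, 7.62, 7.75, 7.98 and 7.88 in the RNAi arrays, against 7.34 in the HT115 wild type, and at 7.90, 8.40 and 8.02 in gas-1, mev-1 and isp-1, against 8.52 in the K12 wild type. Each RNAi array lay above its control and each missense array below its own. The HT115 wild type was the lowest and the K12 wild type the highest of the 10 arrays, 1.18 apart. The RNAi difference was 0.41 (SE 0.25, limma adjusted p = 0.780) and the missense difference -0.42 (SE 0.27, adjusted p = 1.00), and all 8 mutants lay between the wild types.

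The cystathionine gamma-lyases, which cleave cystathionine to cysteine, differed from each other. cth-1 (F22B8.6) had 8.25, 9.68, 8.27, 9.19 and 11.67 in the RNAi arrays, against 8.39 in the HT115 wild type, and 9.97, 7.54 and 8.72 in gas-1, mev-1 and isp-1, against 8.28 in the K12 wild type. It spanned 4.13 over the 10 arrays, the widest range of the 10 members, and both wild types lay inside the range of their mutants. The ndub-7 RNAi array stood 3.29 above its control, and there 13 of 13 moulting genes were also above it, with a median of 1.07. gas-1 stood 1.69 above its control with 2 of 13 moulting genes above (median -0.63). Of all 12642 genes tested, 5311 stood above their control in ndub-7 RNAi and 6248 in gas-1. The part of stage in the cth-1 values was not tested. Mean differences were 1.03 (SE 1.27) in the RNAi arrays and 0.47 (SE 1.34) in the missense arrays. Without ndub-7 RNAi the first was 0.46, and without gas-1 the second was -0.15.

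cth-2 (ZK1127.10) was the single member below its own wild type in 8 of 8 mutants, a pattern seen in 6.78% of all genes. It had 12.37, 12.23, 12.16, 12.38 and 12.20 in the RNAi arrays, against 12.44 in the HT115 wild type, and 12.36, 12.06 and 11.98 in gas-1, mev-1 and isp-1, against 12.41 in the K12 wild type. The sizes were small, -0.045 to -0.43, and the difference of the 8 mutants from both wild types was -0.22 (SE 0.11, limma adjusted p = 0.778).

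**Figure D3:**
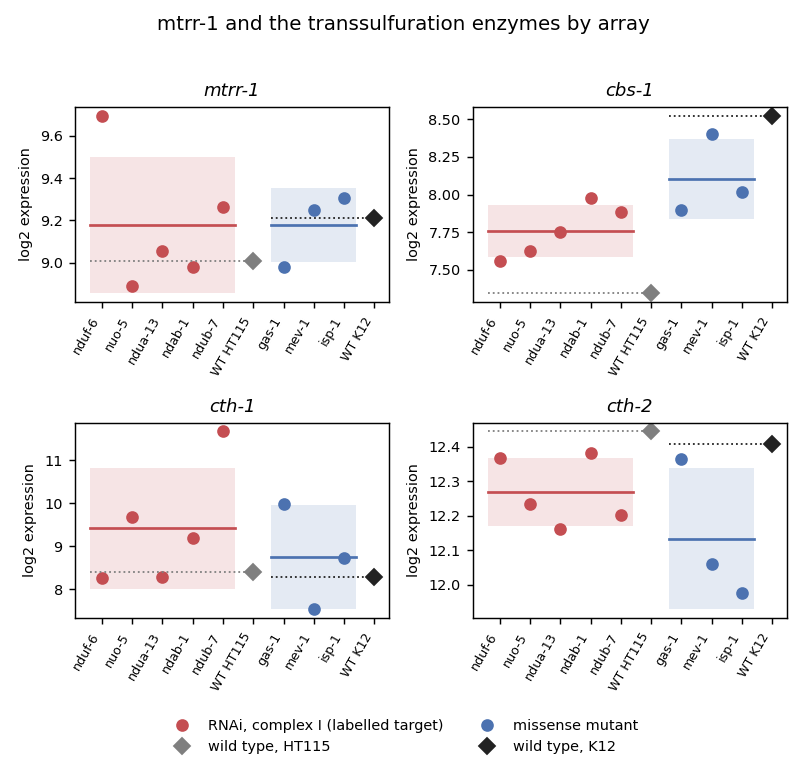
Log2 expression by array for mtrr-1, cbs-1, cth-1 and cth-2, drawn as in the plot of the synthetase genes, each panel with its own scale. For cbs-1 all 8 mutants lie between the HT115 wild type (7.34) and the K12 wild type (8.52), and for cth-2 all 8 lie below both.

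Set against both wild types together, with a term for culture, the 8 mutants averaged above wild type for 8 of 10 members, against 50.5% of genes, with a median of 0.13, against 0.0021 over all genes, and 0 of 10 members passed limma's test, adjusted or at an unadjusted p of 0.05 (0.0158% and 6.9% of all genes passed). The largest values were 0.76 (SE 0.87) for cth-1, 0.64 (SE 0.45) for sams-1 and 0.32 (SE 0.15, adjusted p = 0.731) for ahcy-1. The median depended on which wild type was included: without the HT115 wild type the median was -0.22, and without the K12 wild type 0.41.

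The difference between the RNAi and missense responses was above 0 for 10 of 10 members, against 46.6% of all genes, with a median of 0.58, against -0.032 over all genes. None passed limma's adjusted test, which 0.0475% of genes passed. At an unadjusted p of 0.05 only sams-4 did (0.46, SE 0.19), where 4.21% of all genes did. That depended on the processing: over 15 alternative settings sams-4 was under this threshold in 6, cbs-1 in 6, sams-1 in 2 and ahcy-1 in 1. The largest difference was 1.67 for sams-1 (SE 0.75, 95% interval -0.055 to 3.40), and cbs-1 had 0.83 (SE 0.37, 95% interval -0.013 to 1.68), each with an adjusted p of 1.00. Without ndab-1 RNAi the member median was 0.62 and 0 of 10 passed. This difference holds both wild-type arrays, so their own difference enters it directly.

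**Figure D4:**
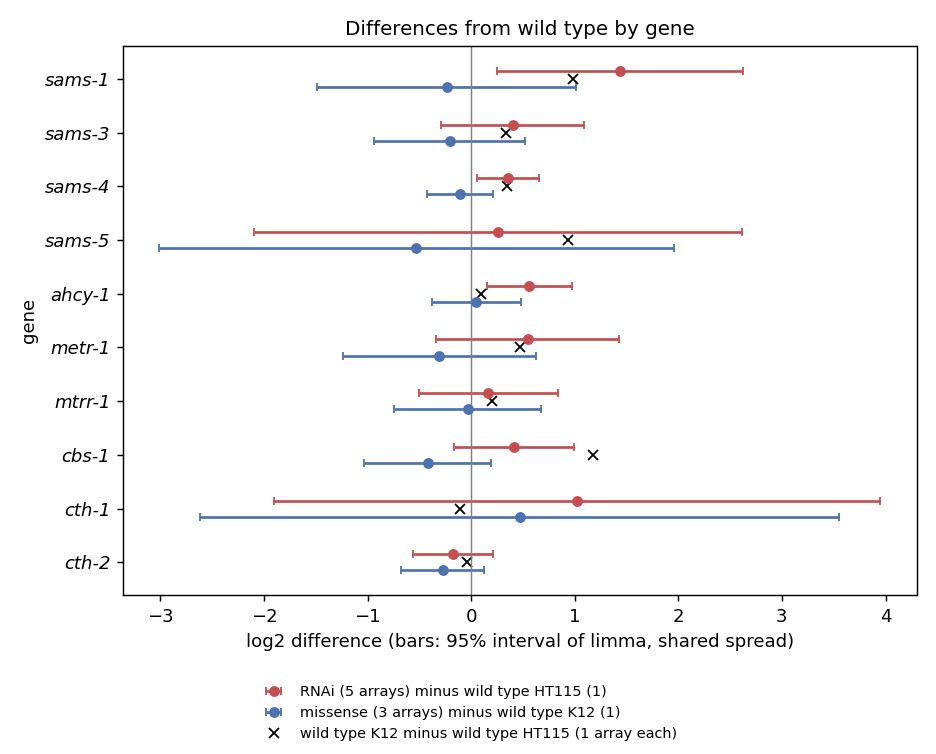
Mean log2 difference by gene with limma's 95% interval for the RNAi arrays minus the HT115 wild type (red) and the missense arrays minus the K12 wild type (blue), with the difference of the wild types as crosses. The RNAi intervals of sams-1, sams-4 and ahcy-1 lie above 0, and for sams-4 the cross (0.35) sits at the RNAi difference (0.36).

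Across the 10 arrays some members of the cycle had similar profiles, given here as a description, since groups of arrays share a culture. Of the 45 pairs of members, 14 had a Pearson r above 0.5 and 33 one above 0. The median was 0.29, and r ran from -0.34 to 0.87. The same shares over pairs of all genes were not computed. The highest member pairs were sams-3 with metr-1 (0.87), sams-1 with sams-3 (0.84) and metr-1 with mtrr-1 (0.81). By contrast, cbs-1 with sams-1 had 0.0015 and cth-1 with cth-2 had 0.054.

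Among all genes, those most like metr-1 over the 10 arrays were ZK1290.7 (r = 0.94, at 2.69 to 2.77 in all arrays, near the filter level of 2.60), mthf-1 (r = 0.93) and sams-2 (r = 0.91), and the least alike was rnp-7 (r = -0.96). mthf-1 is the methylenetetrahydrofolate reductase that makes the methyl folate used by methionine synthase. It stood at 11.05 and 11.03 in the arrays labelled nduf-6 and ndub-7 RNAi and at 10.36 to 10.39 in the other RNAi arrays, against 9.82 in the HT115 wild type, the same split as metr-1. The sams-2 probe set is marked by its name as open to cross-hybridisation, and it followed the shared sams-3 probe set with r = 0.90, so these signals may not be separate.

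For sams-1 the most alike were F55C9.6 (r = 0.96, at 2.73 to 2.96), the mitochondrial ribosomal protein gene mrpl-16 (0.94) and the dopamine transporter gene dat-1 (0.93), and the least alike pin-2 (-0.97). For ahcy-1 they were C30G12.4 (0.90), cutl-29 (0.89) and F35G2.5 (0.88), and the least alike Y4C6B.2 (-0.93). For cbs-1 they were F53E4.1 (0.89), scd-1 (0.89) and ilys-4 (0.88), and the least alike slcf-2 (-0.91). Of all genes tested, 8 had an r above 0.9 with sams-1, 1 with ahcy-1, 0 with cbs-1 and 3 with metr-1.

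**Figure D5:**
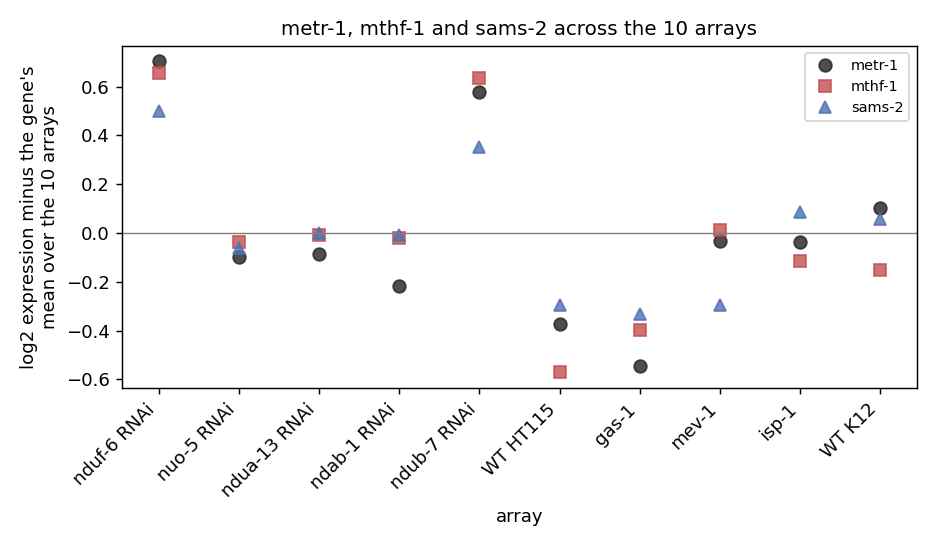
Log2 expression of metr-1, mthf-1 and sams-2 minus each gene's own mean, by array, RNAi arrays and missense arrays each left of their wild type. All 3 genes are highest in the arrays labelled nduf-6 and ndub-7 RNAi and low in gas-1 and the HT115 wild type.

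Genes around the cycle were examined as 5 lists, of whose 76 genes 63 were measured. None passed limma's adjusted test in the RNAi arrays, where 0.396% of all genes did. At an unadjusted p of 0.05, 4 of the 63 were higher and 0 lower, against 2.55% and 5.65% of all genes. The counts above wild type that follow stand against 50.1% of all genes. In the folate list, which supplies the methyl group, 10 of 12 genes averaged above the HT115 wild type with a median of 0.38. mthf-1 differed by 0.81 (SE 0.32, limma adjusted p = 0.529), the serine hydroxymethyltransferase mel-32 by 0.40 (SE 0.19), dao-3 by 0.73 (SE 0.34) and gcsh-2, a glycine cleavage protein, by -0.48 (SE 0.23). In the missense mutants the folate median was 0.16.

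Among genes whose products use S-adenosylmethionine, 6 of the 11 measured were above the HT115 wild type, with a median of 0.0067. The phosphoethanolamine methyltransferase pmt-2 differed by 0.32 (SE 0.24), the ubiquinone methyltransferase coq-3 by 0.45 (SE 0.19, limma adjusted p = 0.589), the protein repair methyltransferase pcm-1 by -0.78 (SE 0.39) and anmt-1 by -0.69 (SE 0.39). In the list for phosphatidylcholine synthesis from choline, 4 of 9 were above, with a median of -0.011. The lipid regulator sbp-1 of that list, the worm SREBP, differed by 0.54 (SE 0.20, limma adjusted p = 0.504), ckb-4 by 0.65 (SE 0.45), cept-2 by 0.23 (SE 0.22) and ckb-1 by 0.13 (SE 0.33).

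Downstream of transsulfuration, the list of cysteine use, glutathione synthesis and sulfide had 15 of 20 genes measured and a median of 0.11 in the RNAi arrays. The sulfide quinone oxidoreductase sqrd-1 differed by 1.15 (SE 0.59), mpst-7 by 2.03 (SE 0.91), cysl-3 by 0.63 (SE 0.38) and cysl-2 by -0.95 (SE 0.49), and gcs-1, the rate-limiting step of glutathione synthesis, by -0.046 (SE 0.17, chosen after its value was seen). The vitamin B12 and propionate list had a median of 0.20, with 14 of 16 genes above. Its genes with the smallest p were mrp-5 (0.45, SE 0.15, limma adjusted p = 0.442), ech-6 (0.85, SE 0.51), pccb-1 (0.21, SE 0.16) and mce-1 (-0.45, SE 0.35).

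Tissue marker lists differed in direction in the RNAi arrays. Of 12 intestine genes 11 averaged above the HT115 wild type, with a median of 0.48, and their summed linear level was 57202 to 79887 in the RNAi arrays and 56521 in the HT115 wild type. Of 11 neuron genes 10 averaged above the HT115 wild type, with a median of 0.46 and sums of 11970 to 20824 in the RNAi arrays and 10971 in the HT115 wild type. The median difference of the K12 from the HT115 wild type was 0.78 for neuron, 0.53 for sperm, 0.36 for intestine and 0.15 for body wall muscle genes. It was -0.15 for moulting and -0.051 for germline and oocyte genes. Of 11 sperm genes 10 averaged above the HT115 wild type (median 0.34), and of 13 moulting genes 8 (median 0.32). Of 15 germline and oocyte genes 3 did (median -0.12), and of 10 body wall muscle genes 3 (median -0.016).

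In the missense mutants, where the member median was -0.22, body wall muscle genes averaged below the K12 wild type for 10 of 10 (median -0.32), with summed linear levels of 75071 to 79294 in the missense arrays and 94679 in the K12 wild type. Moulting genes averaged below it for 9 of 13 (median -0.27), neuron genes for 8 of 11 (median -0.061), and germline and oocyte genes for 8 of 15 (median -0.068). Intestine genes averaged above it for 7 of 12 (median 0.025) and sperm genes for 8 of 11 (median 0.13). Of all genes tested, 51.6% averaged above the K12 wild type. The part of tissue content in the member differences was not tested.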

How the data were processed

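The authors deposited log2 expression values, taken to be log2 because they span 1.43 to 16.01. Their summarisation and normalization are not given in the sources used here. Per the labels' protocols, RNA of 3 biological replicates was pooled per array. Because array medians differed by 0.13, values were quantile normalised. Of 22625 probe sets, 77 were controls, 20766 had 1 symbol, 887 several and 895 none, and 20701 were matched by Entrez identifier to RefSeq (WBcel235, names only). Probe sets with a mean under the 25th percentile (2.60) were left out, and the probe set with the highest mean stood for a gene. A shared probe set was kept only for sams-3.

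limma 3.58.1, run in R 4.3.3, tested the differences (empirical Bayes with trend, two-sided, Benjamini-Hochberg over 12642 genes) in a fit of 4 groups (6 residual degrees of freedom) and one with culture and mutant terms (7). The wild types, 1 array each, were assumed to vary like the mutants. In the fit of 4 groups each p-value sets a difference against the pooled variation within the RNAi and missense groups. In the fit with culture and mutant terms, that variation also holds the difference between the RNAi and missense responses. Signal over background was not used, and precision is limited by the number of arrays. Named were all members, the 4 genes with the smallest RNAi p per list, any that passed, and the 3 most and 1 least alike by Pearson r for sams-1, ahcy-1, cbs-1 and metr-1. Members and lists were chosen with earlier results of these data known. The RNAi fit was tested on simulated data of 12642 genes, where 18.2% of 2-fold and 60.4% of 4-fold changes were recovered. Alternatives were other normalizations, filters, probe set rules, variance models and arrays left out.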

Additional observations from a re-analysis of the deposited data

Results flagged for a closer look

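For sams-4, metr-1 and cbs-1 every RNAi array stood above the HT115 wild type and every missense array below the K12 wild type, which holds for 3 of 10 members and for 2.96% of all genes. The difference between the RNAi and missense responses was tested with limma and did not pass for any of them. It was 0.46 for sams-4 (SE 0.19), 0.85 for metr-1 (SE 0.56) and 0.83 for cbs-1 (SE 0.37), each with an adjusted p of 1.00. The wild types differed for these genes too, with K12 above HT115 by 0.35, 0.47 and 1.18. In the other probe set of sams-4, gas-1 stood above the K12 wild type (10.28 against 10.12), so the pattern did not hold there. No RNAi array of the 10 members stood apart from the other 4 by Dixon's criterion for 5 samples (0.710).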

How the results depend on the processing

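No paired analysis was possible because each wild type is 1 array, so the groups compared share fewer than 2 replicate numbers. No member passed the adjusted test under any setting (lowest adjusted p 0.183), and 620 of 640 recomputed member differences kept their direction. In the RNAi comparison sams-1 ranged from 1.17 (without ndub-7 RNAi) to 1.54 and ahcy-1 from 0.50 to 0.65. There sams-5 ranged from -0.13 (without ndub-7 RNAi) to 0.62 and mtrr-1 from 0.037 (without nduf-6 RNAi) to 0.24. With arrays left out in turn, missense differences ranged from -0.095 to 0.068 for mtrr-1 (above 0 without gas-1, and 0.00932 with median centring), -0.15 to 1.07 for cth-1 (below 0 without gas-1) and -0.025 to 0.11 for ahcy-1 (below 0 without isp-1). The response difference of cth-1 ranged from -0.046 (without mev-1; -0.00864 without ndub-7 RNAi) to 1.17. In the 8 mutants the ranges were -0.24 to 1.44 for sams-1, -0.21 to 0.40 for sams-3, -0.11 to 0.36 for sams-4, -0.31 to 0.55 for metr-1 and -0.031 to 0.17 for mtrr-1, each below 0 only without the HT115 wild type. They were -0.42 to 0.41 for cbs-1 (below 0 without that array, mev-1, ndab-1 or ndub-7 RNAi, and -0.013 on values as deposited) and -0.53 to 0.26 for sams-5 (above 0 without the K12 wild type, gas-1 or nduf-6 RNAi). The member median there ranged from -0.22 to 0.41, and in the missense comparison from -0.27 (without isp-1) to -0.14 (without gas-1). Leaving out a wild type reduces this fit to the other comparison by construction, and the cause of the other reversals was not tested.

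Counts of all genes passing were less stable. In the RNAi comparison 50 genes passed, 304 with no filter, 0 with a filter at the median and 14 with only its own arrays. In the missense comparison 4 passed, 98 with no filter, 1 with a filter at the median, 2 with median centring, 0 with only its own arrays and 1 to 10 with arrays left out. In the 8 mutants 2 passed, 12 with no filter, 4 on values as deposited, 0 with median centring, a filter at the median, averaged probe sets or no trend, and 0 to 48 with arrays left out. For the response difference 6 passed, 251 with no filter, 1 with a filter at the median, 3 with no trend and 4 to 10 with arrays left out.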

Other observations

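acdh-1 is the gene of the first enzyme of the propionate shunt, which worms use when vitamin B12 is short. It ordered the missense arrays otherwise than metr-1, the B12-dependent methionine synthase. It was chosen after its values were seen. It had a level of 13.61 in gas-1, of 13.30 in isp-1 and of 9.66 in mev-1, against 8.56 in the K12 wild type. In the RNAi arrays it stood highest in ndub-7 at 12.90, then at 11.90 in nduf-6, 11.43 in nuo-5, 11.15 in ndab-1 and 9.41 in ndua-13, against 9.61 in the HT115 wild type. gas-1, the highest array for acdh-1, was the lowest for metr-1. Among the RNAi arrays, however, nduf-6 and ndub-7 RNAi were the highest for both genes (metr-1 at 10.84 and 10.72). The mean differences of acdh-1 were 3.63 (SE 1.63) in the missense mutants and 1.74 (SE 1.55) in the RNAi arrays, and neither passed limma's test (adjusted p = 1.00 and 0.938).

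The members differed in their spread among the RNAi arrays: the SD of cth-1 was above that of 98.0% of genes and that of sams-5 above 96.3%, while those of sams-4 and cth-2 were above 6.75% and 9.15%. Among the missense arrays these shares were 97.6% for cth-1, 96.3% for sams-5 and 14.7% for sams-4, and cth-2 lay near the middle of all genes.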
